A study of Mus musculus with 6 samples.

Results

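The 9 genes described here encode proteins of neutrophil granules and of the neutrophil cytosol: Elane, Mpo and Prtn3 of azurophil granules, Camp, Ltf, Lcn2 and Ngp of specific granules, and S100a8 and S100a9 of the cytosol. They were taken by name, as all probe sets (groups of short probes that read 1 transcript) whose annotation gives 1 of these symbols, and they are 9 of the 8251 genes that a single symbol names on the array. They are read by 11 probe sets, because Lcn2 and Mpo have 2 each. The cells were whole splenic B cells, from adult animals, on 6 Affymetrix MG_U74Av2 arrays, 2 for each of 3 groups. Btk KO mice carry a knockout of Btk, a kinase of the Tec family that acts downstream of the B cell receptor. They came from a Btk KO/SW129 line bred back to CBA over 9 generations, so differences of that line other than the knockout cannot be told apart from it. Xid mice are the strain CBA/N, whose Btk carries the substitution R28C, and the mutation and other differences of that strain cannot be told apart either. The wild type mice were CBA.

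A first run of 3 arrays, 1 from each group, was followed by a second run with RNA from new mice. The labels do not say if animals were pooled or how B cells were purified, so p-values measure a spread between arrays. It is the spread between the 2 arrays of a group, pooled over the 3 groups and drawn towards that of all tested probe sets. In fits that also model the run, it is the spread left after the run is taken out. In RNA quality 1 array was unlike the rest, that of Btk KO in run 1. Its ratio of 3' to 5' signal, which grows as RNA degrades, was 10.4 for Gapdh controls and 3.61 for beta-actin controls. The other 5 arrays had ratios up to 1.61 and 1.66. It was also hybridised on another day than any other array. The Btk probe set 92668_at read 276.1 and 173.6 in Btk KO, 841.0 and 643.9 in Xid, and 874.1 and 749.8 in CBA (intensity, scaled units). The other Btk probe set, 161971_r_at, was too dim to inform, at 7.5 or less on all arrays. A probe outside the deleted exons would not check the knockout, and the position of these probes was not looked up here. The 9 B lineage markers were all measured, with a summed intensity of 15597.1 and 14447.8 in Btk KO, 21928.9 and 16304.1 in Xid, and 21122.3 and 21233.5 in CBA.

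Neutrophils fill their granules in sequence while they mature in the bone marrow. Azurophil granules form first, at the promyelocyte stage, and hold myeloperoxidase and serine proteases. Specific granules form later, at the myelocyte and metamyelocyte stages, and hold lactoferrin, lipocalin and the cathelicidin precursor. Each message is made mainly while its granule forms, so mature neutrophils carry little message for azurophil proteins. S100A8 and S100A9 are calcium-binding proteins that pair to form calprotectin, a main protein of the neutrophil cytosol, and are also made by monocytes. C/EBP factors, PU.1 and RUNX1 drive this program.

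On the chromosomes these genes lie partly in groups. In the gene table of the assembly GRCm38.p6, S100a8 and S100a9 are neighbours on chromosome 3, with 0 protein-coding genes between them, and so are Prtn3 and Elane on chromosome 10. On chromosome 9, Camp and Ngp are separated by 8 protein-coding genes, and Ngp and Ltf by 20. RefSeq gives a promoter for all 9 genes. The 250 bases before each start were searched on both strands for the letters TTGCNNAA, a form of the C/EBP motif. They occur in 4 of the 9, those of S100a9, Ngp, Ltf and Lcn2, and in 9.56% of 32851 promoters of the same length. These 4 are shown because both arrays of Btk KO read above every other array for these genes, for Lcn2 on the dimmer of its 2 probe sets (160564_at) and not on the other. Camp is shown as a gene with the same pattern and no match, and S100a8, not shown, is another. Capitals mark the match. All run 5' to 3' on the strand of the gene in GRCm38.p6, at chr3:90695722-90695971 (minus strand) for S100a9, chr9:110419558-110419807 (plus) for Ngp, chr9:111019042-111019291 (plus) for Ltf, chr2:32387740-32387989 (minus) for Lcn2 and chr9:109849457-109849706 (minus) for Camp.
S100a9: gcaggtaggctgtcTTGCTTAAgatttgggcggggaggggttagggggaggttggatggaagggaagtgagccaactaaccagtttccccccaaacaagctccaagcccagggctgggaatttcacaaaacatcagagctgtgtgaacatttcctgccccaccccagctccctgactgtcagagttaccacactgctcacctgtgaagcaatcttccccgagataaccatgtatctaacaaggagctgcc
Ngp: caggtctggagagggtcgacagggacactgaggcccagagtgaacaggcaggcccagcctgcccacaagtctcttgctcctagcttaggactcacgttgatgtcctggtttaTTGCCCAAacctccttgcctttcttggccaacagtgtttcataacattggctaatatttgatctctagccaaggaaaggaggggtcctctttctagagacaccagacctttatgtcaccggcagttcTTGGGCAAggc
Ltf: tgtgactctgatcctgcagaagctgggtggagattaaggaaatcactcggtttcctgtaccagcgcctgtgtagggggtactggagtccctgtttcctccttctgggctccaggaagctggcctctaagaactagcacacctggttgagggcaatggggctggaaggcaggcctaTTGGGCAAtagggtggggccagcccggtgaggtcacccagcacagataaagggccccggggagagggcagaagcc
Lcn2: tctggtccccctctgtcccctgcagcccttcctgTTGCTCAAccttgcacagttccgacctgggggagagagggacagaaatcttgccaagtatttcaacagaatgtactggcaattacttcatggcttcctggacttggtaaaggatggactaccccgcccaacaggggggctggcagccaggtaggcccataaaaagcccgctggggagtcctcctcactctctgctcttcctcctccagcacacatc
Camp: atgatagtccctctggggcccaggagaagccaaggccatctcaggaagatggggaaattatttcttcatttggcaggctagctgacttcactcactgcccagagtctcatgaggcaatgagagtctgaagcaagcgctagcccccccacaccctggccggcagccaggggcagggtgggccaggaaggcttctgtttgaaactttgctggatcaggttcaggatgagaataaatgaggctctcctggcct
The match begins 236 bases before the start in S100a9, 75 in Ltf and 216 in Lcn2. Ngp has 2 matches, 138 and 11 bases before the start. The letters GAGGAA of the PU.1 motif occur in 6 of the 9 promoters (Elane, Lcn2, Ltf, Mpo, Prtn3 and S100a8) and in 23.3% of all. The RUNX letters TGTGGT occur in 1 of the 9, that of S100a9, and in 14.0% of all. No matches of different motifs overlap in the 9 promoters (0 overlaps). A match describes these letters in this window and not a bound site.

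Across the 9 genes, the 6 of the cytosol and the specific granules read higher in Btk KO than on any array of the other groups, and the 3 of azurophil granules did not. Both Btk KO arrays lay above all 4 others for 6 of the 11 probe sets, namely 6 of the 7 of cytosol and specific granule genes and 0 of the 4 of azurophil genes. Over the whole array this held for 8.68% of 12422 probe sets. The count of 0 of 4 is near that share, so it is no result about azurophil genes. Of those 4 probe sets, 2 were also too dim to test. For each of those 6 probe sets the Xid arrays overlapped the CBA arrays. In RNA of a whole cell preparation, more cells of a type and more RNA per cell cannot be told apart.

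**Figure D1:**
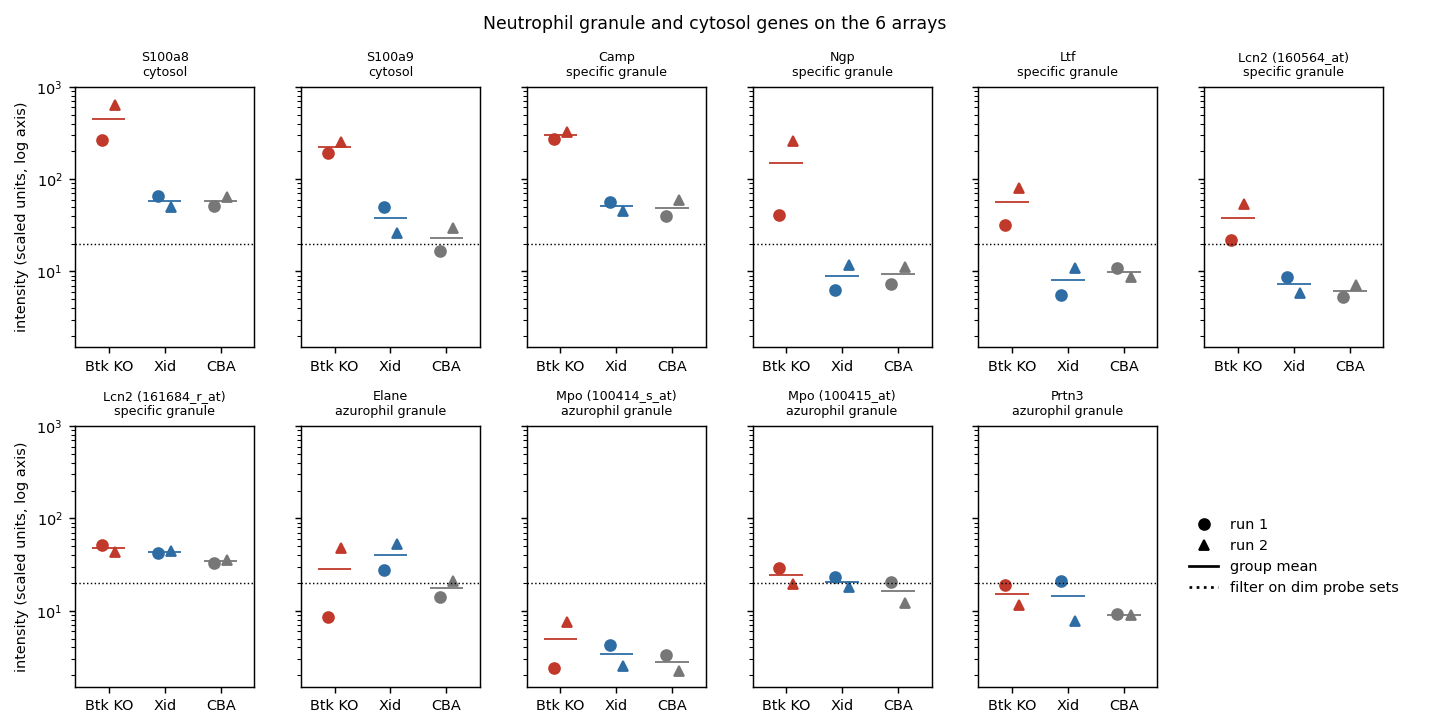
Intensity of each of the 11 probe sets (scaled units, log axis) on the 2 arrays of Btk KO, Xid and CBA, with circles for run 1, triangles for run 2, bars for group means and a dotted line at 19.83, the level of the filter on dim probe sets. The Btk KO points of S100a8, S100a9, Camp, Ngp, Ltf and Lcn2 (160564_at) lie above all points of the other groups, and those of Elane, Mpo and Prtn3 overlap them.

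S100a8 (probe set 103448_at) read 267.1 and 629.3 in Btk KO, 65.4 and 50.0 in Xid, and 50.9 and 64.5 in CBA. The Btk KO arrays were both high and differed from each other by 2.36 times, and the lower of them was 4.08 times the highest other array. Its partner gene S100a9 (103887_at) read 194.0 and 252.6 in Btk KO, 49.9 and 26.1 in Xid, and 16.8 and 29.5 in CBA. Here the Btk KO arrays were closer together, at a ratio of 1.30, and the lower one was 3.89 times the highest other array, the Xid array of run 1. The Xid and CBA arrays overlapped for both genes.

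Camp encodes the precursor of cathelicidin, an antimicrobial peptide. Its probe set 92322_at read 271.1 and 324.2 in Btk KO, 56.3 and 45.1 in Xid, and 39.4 and 58.8 in CBA. Among the 6 probe sets that separated Btk KO, its Btk KO arrays were the closest, at a ratio of 1.20, and the gap to the highest other array was the widest, at 4.61 times. Ngp encodes neutrophilic granule protein, a relative of the cystatins and cathelicidins in the mouse. Its probe set 96153_at read 40.8 and 258.3 in Btk KO, 6.3 and 11.6 in Xid, and 7.4 and 11.2 in CBA. Both Btk KO arrays were above all others, but they differed from each other by 6.33 times, the widest gap among the 11 probe sets. The other 4 arrays lay below the filter level of 19.83, so Ngp entered the test through its Btk KO arrays alone and had to differ.

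Ltf encodes lactoferrin, which binds iron. Its probe set 101115_at read 31.8 and 80.4 in Btk KO, 5.5 and 10.8 in Xid, and 10.9 and 8.7 in CBA, so that the lower Btk KO array was 2.92 times the highest other one. Lcn2 encodes lipocalin 2, which binds bacterial iron carriers. On 160564_at it read 21.9 and 53.8 in Btk KO, 8.8 and 5.9 in Xid, and 5.3 and 7.1 in CBA. Both probe sets repeated the order seen for Ngp, with run 2 of Btk KO highest, run 1 of Btk KO next and the other 4 arrays at or below 10.9. Both were dim on average and stayed out of the test. The second Lcn2 probe set, 161684_r_at, did not show the difference. It read 51.8 and 43.6 in Btk KO, 42.3 and 43.9 in Xid, and 33.3 and 35.8 in CBA, and the Btk KO and Xid arrays overlapped. The letter r in its name marks a set for which the usual rules of probe choice were relaxed, and the 2 Lcn2 probe sets disagree here.

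The azurophil genes did not separate the groups. Elane (100755_at), which encodes neutrophil elastase, read 8.6 and 48.0 in Btk KO, 27.5 and 52.8 in Xid, and 14.2 and 20.9 in CBA. The lowest of the 6 arrays was the Btk KO array of run 1 and the highest was the Xid array of run 2, and both Xid arrays lay above both CBA arrays. Mpo encodes myeloperoxidase, which makes hypochlorous acid from hydrogen peroxide. On 100415_at it read 29.4 and 19.5 in Btk KO, 23.0 and 18.2 in Xid, and 20.3 and 12.1 in CBA. On 100414_s_at it read at most 7.5 on any array. Prtn3 (104541_at), which encodes the serine protease proteinase 3, read 18.9 and 11.5 in Btk KO, 20.9 and 7.8 in Xid, and 9.2 and 9.0 in CBA. The Btk KO arrays overlapped the Xid arrays in all 4 of these probe sets and the CBA arrays in all but that of Prtn3, where both Btk KO arrays were above CBA. The Mpo and Prtn3 values lie near or below the filter level, and so do those of Elane in CBA and on the Btk KO array of run 1. There the signal of an array carries little information about a transcript.

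For the comparison of Btk KO with CBA, intensities were taken to log2 after adding 6, and limma was fitted to all 7453 probe sets that passed the filter, with Benjamini-Hochberg adjustment over all of them and a threshold of 0.05. Of the 11 probe sets, 7 were tested and 4 were too dim. Camp rose by 2.48 ± 0.27 (log2 difference ± SE, n = 2 arrays a group; limma adjusted p = 0.028), and S100a9 rose by 3.0 ± 0.37 (limma adjusted p = 0.041). Without the run in the model these 2 passed, against 0.161% of all tested probe sets that were called higher in Btk KO. With the run as a block, 4 passed as higher, namely Camp (limma adjusted p = 0.0063), S100a9 (0.010), S100a8 (0.012) and Ngp (0.044), against 1.42% of all. The call of Ngp rested on the filter, which it passed through its Btk KO arrays: with the block and all probe sets fitted, limma adjusted p was 0.11, and the other 3 passed. The calls without the block depended on the processing. S100a9 lost its call with quantile normalization (limma adjusted p = 0.074), median centring (0.067), no filter (0.066), no intensity trend (0.062) and only the 2 groups in the model (0.064), and Camp lost it with the last 2 (0.053 and 0.064). Without the block, S100a8 differed by 2.72 ± 0.39 (limma adjusted p = 0.052) and Ngp by 2.87 ± 0.74 (0.26). Leaving out any single CBA or Xid array left 0 of the 7 below the threshold in limma without the block, with 4 at an unadjusted p under 0.05 each time, against 391 to 573 of all 7453 probe sets. In those fits limma called 0 of the 7453, so the loss was not particular to these genes.

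The remaining tested probe sets did not pass in either fit. The log2 difference between Btk KO and CBA was 0.40 ± 0.27 for Lcn2 on 161684_r_at (limma adjusted p = 0.75), 0.27 ± 0.63 for Elane (0.95) and 0.46 ± 0.39 for Mpo on 100415_at (0.82). When the filter was dropped and all probe sets were fitted, Ltf differed by 1.86 ± 0.49 (limma adjusted p = 0.37) and Lcn2 on 160564_at by 1.75 ± 0.46 (0.36), and neither passed with the block (0.17 and 0.19). In that fit Prtn3 differed by 0.47 ± 0.44 and Mpo on 100414_s_at by 0.29 ± 0.30. The median log2 difference over all 7453 probe sets was 0.01.

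Each run gives the comparison once, from 1 array a group. The log2 difference between Btk KO and CBA in run 1 and run 2 was 2.26 and 3.17 for S100a8, 3.13 and 2.87 for S100a9, and 2.61 and 2.35 for Camp. S100a8 thus differed more in run 2, and S100a9 and Camp slightly more in run 1. The difference was 1.80 and 3.94 for Ngp, 1.16 and 2.56 for Ltf, and 1.30 and 2.19 for Lcn2 on 160564_at, so that these specific granule genes differed more in run 2. For Elane the sign changed between the runs, at -0.47 and 1.0. On Mpo 100414_s_at it changed too, at -0.15 and 0.72, while Mpo 100415_at gave 0.43 and 0.49 and Prtn3 gave 0.71 and 0.22.

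**Figure D2:**
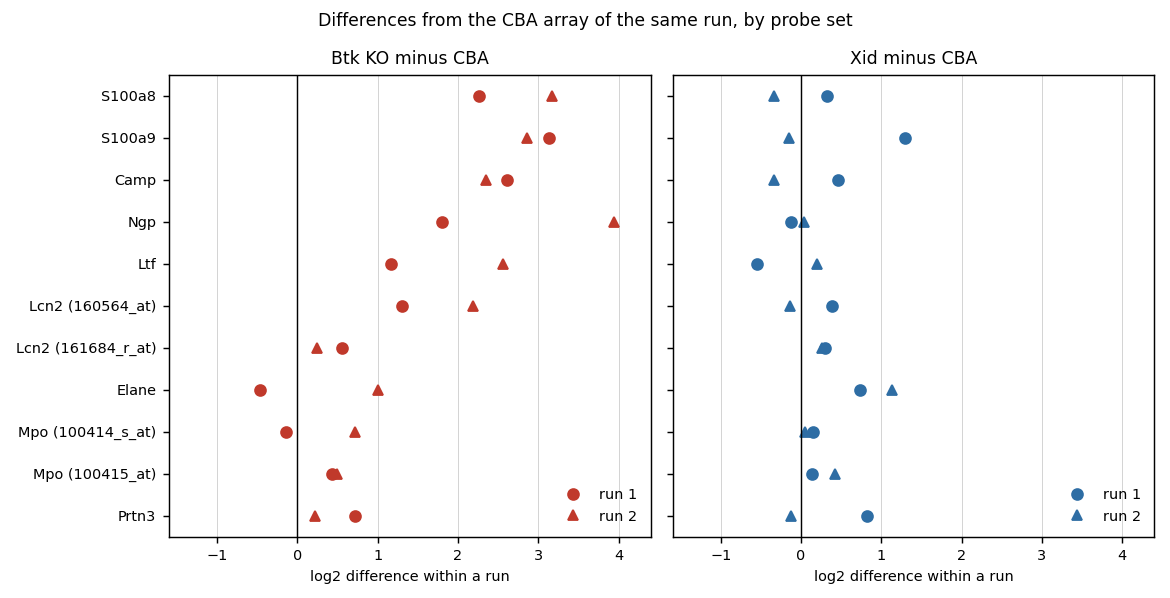
Log2 difference (after adding 6) from the CBA array of the same run, by probe set, for Btk KO (left panel) and Xid (right panel), with circles for run 1 and triangles for run 2. In Btk KO the first 6 probe sets lie at 1.16 or above in both runs, and in Xid they scatter around 0 with S100a9 of run 1 at 1.29.

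The Btk KO array of run 1, the one with the Gapdh ratio of 10.4, read lower than that of run 2 in 8 of the 11 probe sets. The share of all probe sets with this order was not counted, so the 8 of 11 cannot be called particular to these genes. The ratio of run 2 to run 1 in Btk KO was 2.53 for Ltf, 2.46 for Lcn2 on 160564_at and 5.58 for Elane, against 0.84 for Lcn2 on 161684_r_at, 0.66 for Mpo on 100415_at and 0.61 for Prtn3. The part of RNA quality in these gaps was not tested. Without that array, the log2 difference between Btk KO and CBA was 3.33 for S100a8, 3.18 for S100a9, 2.61 for Camp and 4.12 for Ngp. Without the other Btk KO array the differences were 2.11, 2.81, 2.35 and 1.62 in the same order of genes. In both fits the lone Btk KO array was assumed to vary like the arrays of the other groups. The differences of S100a8, S100a9 and Camp were thus positive with either Btk KO array alone. That of Ngp was too, but Ngp had entered the test through its Btk KO arrays alone.

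**Figure D3:**
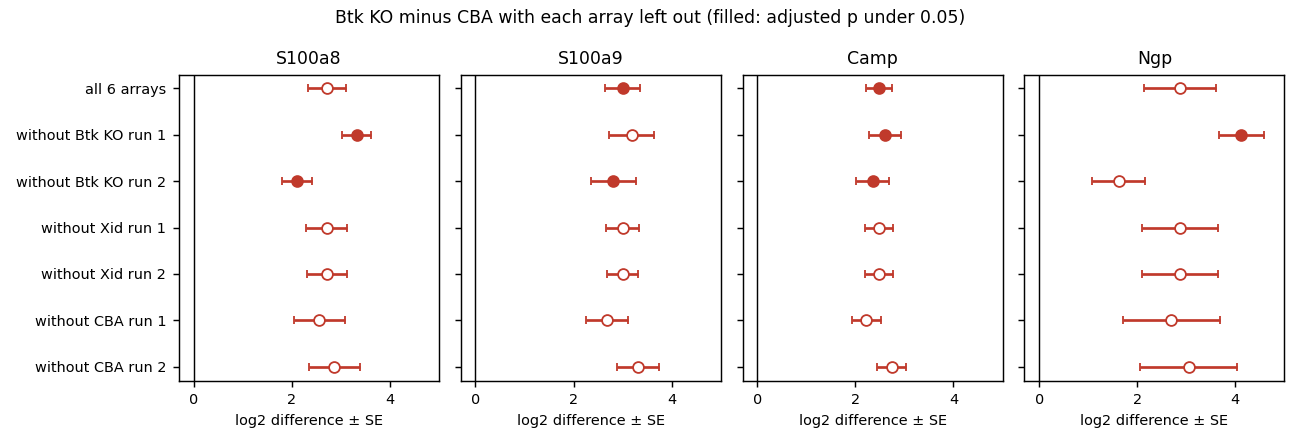
Log2 difference between Btk KO and CBA (points, with bars for the standard error of limma) for S100a8, S100a9, Camp and Ngp with all 6 arrays and with each array left out, filled where adjusted p was under 0.05. Every point lies right of 0, between 1.62 and 4.12, and Ngp moves most with the Btk KO array that is left out. Ngp passed the filter through its Btk KO arrays alone.

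The comparison of Xid with CBA asks whether the same genes differ in mice with the point mutation. None of the 7 tested probe sets passed in limma without or with the block (0 of 7 in both, and 0 at an unadjusted p under 0.05 in both), against 0.0134% and 0.362% of all tested probe sets called higher in Xid. The log2 difference was 0.00 ± 0.39 for S100a8, 0.06 ± 0.27 for Camp and -0.05 ± 0.74 for Ngp. S100a9 differed by 0.57 ± 0.37, from 1.29 in run 1 and -0.15 in run 2, so that its 2 runs had opposite signs. Elane had the widest difference, at 0.93 ± 0.63 (limma adjusted p = 1.0, and 0.67 with the block), and was higher in Xid in both runs, at 0.73 and 1.13. Lcn2 on 161684_r_at differed by 0.28 ± 0.27 and Mpo on 100415_at by 0.28 ± 0.39. In the fit of all probe sets, Ltf differed by -0.18 ± 0.49, Lcn2 on 160564_at by 0.13 ± 0.46 and Prtn3 by 0.35 ± 0.44. The median over all 7453 probe sets was 0.01. The standard error of Ngp is shared with the Btk KO arrays, which lie far apart. It was 0.48 with only Xid and CBA in the model and 0.38 without the Btk KO array of run 1.

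The direct comparison of Btk KO with Xid gave differences close to those from CBA for the cytosol and specific granule genes. The 2 comparisons share the Btk KO arrays, so their values stand side by side and do not add to each other. S100a8 differed by 2.72 ± 0.39 (limma adjusted p = 0.13, and 0.038 with the block), and Camp by 2.42 ± 0.27 (0.05 after rounding and just above the threshold, and 0.014 with the block). S100a9 differed by 2.42 ± 0.37 (limma adjusted p = 0.14, and 0.085 with the block) and Ngp by 2.92 ± 0.74 (0.91 and 0.23). Of the 7 tested, 0 passed in limma without the block, with 4 at an unadjusted p under 0.05 (269 of all 7453), and 2 passed with it, namely Camp and S100a8. Over all probe sets 0.0268% were called higher in Btk KO without the block and 0.107% with it. In run 1 and run 2 the log2 difference between Btk KO and Xid was 1.94 and 3.50 for S100a8, 1.84 and 3.01 for S100a9, 2.15 and 2.69 for Camp, and 1.93 and 3.91 for Ngp. Each was larger in run 2. Elane had the opposite sign, at -0.66 ± 0.63, and was lower in Btk KO than in Xid in both runs, at -1.20 and -0.12. Lcn2 on 161684_r_at differed by 0.13 ± 0.27 and Mpo on 100415_at by 0.18 ± 0.39.

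Further granule genes were read from lists outside the 9. Of all 7453 probe sets, 658 had an unadjusted p under 0.05 between Btk KO and CBA without the block and 1122 with it, and 330 and 604 had one between Xid and CBA, which is the background for the counts of lists. Of 11 secondary and tertiary granule genes on the array, 8 were tested, with a median log2 difference between Btk KO and CBA of 0.56, against 0.01 over all probe sets. Of these 8, 3 had an unadjusted p under 0.05 between Btk KO and CBA without the block and 4 with it. Slpi, which encodes an inhibitor of neutrophil elastase made by many epithelia and myeloid cells, was the gene of this list that passed. That is 1 of 8 in either fit, against 0.161% of all probe sets called higher without the block and 1.42% with it. Slpi read 574.3 and 579.0 in Btk KO, 303.4 and 278.3 in Xid, and 215.1 and 180.7 in CBA, a difference of 1.52 ± 0.19 from CBA (limma adjusted p = 0.041, and 0.0064 with the block). Without any single CBA or Xid array limma called 0 probe sets, so that Slpi lost its call there too. Its Xid arrays lay above both CBA arrays, at 0.55 ± 0.19, without passing (limma adjusted p = 0.89, and 0.33 with the block). Hp, which encodes haptoglobin, a haemoglobin-binding protein, read 85.0 and 103.9 in Btk KO, 51.9 and 65.9 in Xid, and 41.3 and 44.7 in CBA. Anxa1, which encodes annexin A1, read 125.6 and 165.4 in Btk KO, 84.1 and 50.2 in Xid, and 76.2 and 55.7 in CBA on 93038_f_at. Both separated Btk KO from every other array, as Slpi did, but Hp (limma adjusted p = 0.23, and 0.069 with the block) and Anxa1 (0.32 and 0.11) did not pass. Such a separation held for 3 of the 11 genes, against 8.68% of all probe sets. Lyz2, of lysozyme, differed by 0.82 ± 0.35. The other 4 tested genes of the list differed less from CBA, by 0.08 for Chil3, 0.26 for Pglyrp1, 0.24 for Itgb2l and 0.30 for Wfdc21, and none of them separated Btk KO from the other arrays. The collagenase gene Mmp8, the gelatinase gene Mmp9 and Arg2 were below the filter level on all 6 arrays, with Mmp8 at most 5.0 and Mmp9 at most 8.0. Between Xid and CBA the median of the 8 was 0.30, and 0 passed in limma in either fit, with 1 at an unadjusted p under 0.05 in each.

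Azurophil genes outside the 9 had no calls. Over all probe sets 0.161% were called higher in Btk KO than in CBA without the block and 1.42% with it. A count of 0 among 7 is near these shares. Of 8 on the array 7 were tested, with a median log2 difference of 0.18 between Btk KO and CBA and 0.19 between Xid and CBA, and 0 passed in limma in either fit of either comparison, with 1 at an unadjusted p under 0.05 between Btk KO and CBA with the block and 0 in the other fits. Ctsg, which encodes cathepsin G, a protease stored with elastase, read at most 5.5 on any array. Cst7 differed by 0.89 ± 1.01 between Btk KO and CBA, Cd63, a membrane protein of azurophil granules, by 0.66 ± 0.35 and Fut4 by 0.66 ± 0.51. The mean of Cd63 passed the filter only through its Btk KO arrays. Most genes of this list are lysosomal and are made in many cell types.

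Surface receptors of neutrophils gave mixed values. Of 14 on the array 8 were tested, with a median of 0.12 between Btk KO and CBA and 0.31 between Xid and CBA. In Btk KO 0 passed in limma, with 3 at an unadjusted p under 0.05 without the block and 4 with it. Ly6g, the antigen by which mouse neutrophils are usually identified, was too dim to test, at 14.9 and 37.7 in Btk KO, 10.2 and 11.3 in Xid, and 12.5 and 20.6 in CBA. The chemokine receptor gene Cxcr2 was also too dim, at 37.4 and 10.7 in Btk KO, 4.5 and 2.8 in Xid, and 8.1 and 9.2 in CBA. Both Btk KO arrays were above all others for Cxcr2 but not for Ly6g. The receptor of granulocyte colony-stimulating factor, Csf3r, read 233.4 and 138.0 in Btk KO, 261.7 and 137.3 in Xid, and 252.8 and 132.4 in CBA, so that it followed the run and not the group. Fpr2, a formyl peptide receptor, differed by 1.54 ± 0.44 between Btk KO and CBA (limma adjusted p = 0.31, and 0.11 with the block) and Selplg by 0.70 ± 0.29. Ccr1, a chemokine receptor gene, ran the other way. It read 31.7 and 45.8 in Btk KO, 21.1 and 30.9 in Xid, and 100.5 and 99.8 in CBA. It fell by 1.75 in Xid with the block (limma adjusted p = 0.044, and 0.20 without the block), and it differed by -1.26 in Btk KO (0.22 without the block and 0.059 with it).

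All 5 measured genes of the NADPH oxidase, the enzyme with which neutrophils and B cells make superoxide, had negative differences between Btk KO and CBA, with a median of -0.44, and 0 passed in limma, with 1 at an unadjusted p under 0.05 without the block and 2 with it. All 5 were negative between Xid and CBA too, with a median of -0.30. Ncf1 read 84.9 and 188.6 in Btk KO, 171.1 and 200.6 in Xid, and 230.2 and 228.2 in CBA, and Ncf4 differed by -0.44 ± 0.21 between Btk KO and CBA. Of 10 transcription factors of granulocyte development on the array, 9 were tested, with a median of 0.65 between Btk KO and CBA and 0.43 between Xid and CBA. Id2 passed with the block in both, at 1.90 ± 0.41 in Btk KO (limma adjusted p = 0.17 without the block and 0.0053 with it) and 1.19 ± 0.41 in Xid (0.89 and 0.034). It encodes an inhibitor of helix-loop-helix factors that is also active in NK and dendritic cells. Cebpb differed by 0.82 ± 0.26, Irf8 by 0.73 ± 0.23, and Spi1, which encodes PU.1, by -0.21 ± 0.47 between Btk KO and CBA.

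Markers of other cell types moved with the groups too. The summed intensity of 18 monocyte and macrophage markers was 11241.1 and 15200.6 in Btk KO, 7281.0 and 11079.2 in Xid, and 3533.3 and 5270.4 in CBA. Between Btk KO and CBA their median was 1.67, and of 16 tested 3 passed as higher without the block (0.161% of all probe sets) and 12 with it (1.42% of all). Between Xid and CBA it was 1.07, and limma called 0 without the block, with 10 at an unadjusted p under 0.05, and 6 as higher with the block (0.362% of all). S100a8, Camp and Ngp in Xid overlapped CBA. The macrophage sum was above CBA on both Xid arrays, with positive differences for 14 of the 16 tested markers. The exceptions were Ccr2 (-0.002) and Cd5l (-0.067), which differed by 1.13 and 0.89 between Btk KO and CBA. Both Btk KO arrays lay above all others for 7 of the 18, against 8.68% of all probe sets. The sum of 10 NK and cytotoxic markers was 1396.1 and 3260.4 in Btk KO, 878.4 and 1613.9 in Xid, and 583.0 and 1155.5 in CBA, and in Btk KO against CBA limma called 0 of the 10 without the block, with 7 at an unadjusted p under 0.05, and 5 as higher with it (1.42% of all probe sets). The sum of 13 erythroid markers was 23675.0 and 11727.9 in Btk KO, 9629.5 and 8349.9 in Xid, and 6209.2 and 8379.0 in CBA. Of the 12 tested, 0 passed in limma in either fit of Btk KO against CBA. Each fit had 9 at an unadjusted p under 0.05. Their median was 1.43 between Btk KO and CBA and 0.25 between Xid and CBA. Both Btk KO arrays lay above all others for 9 of the 13 erythroid and 5 of the 10 NK markers, against 8.68% of all probe sets. Between Btk KO and CBA the 9 B lineage markers had a median of -0.52, and 0 passed in limma in either fit, with 3 at an unadjusted p under 0.05 without the block and 5 with it. Of the Btk KO arrays, that of run 1 had the higher erythroid sum. That of run 2 had the higher macrophage and NK sums. It also had the higher value in 8 of the 11 granule probe sets, a count without a share over all probe sets beside it. The macrophage and NK sums were higher in run 2 in Xid and CBA too. S100a8, S100a9 and Camp read lower in run 2 than in run 1 in Xid, and higher in CBA.

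**Figure D4:**
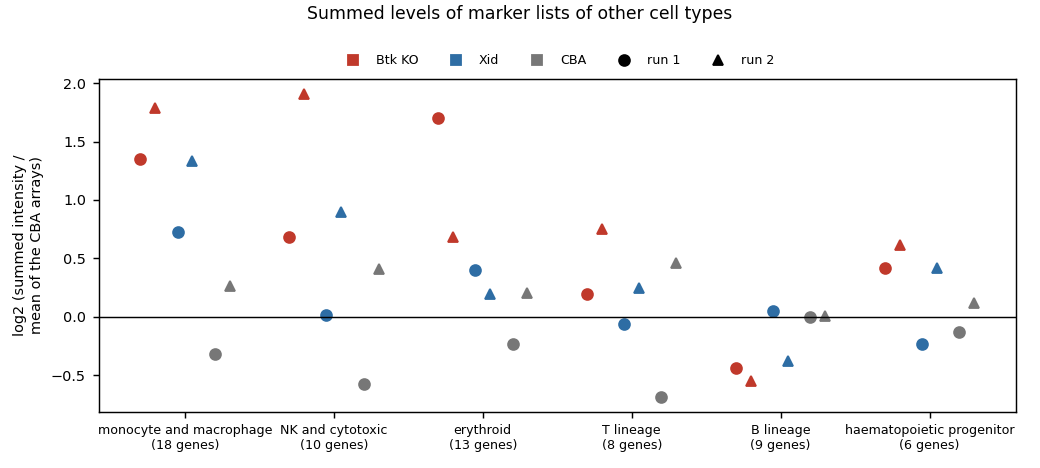
Log2 of the summed intensity of 6 marker lists over the mean of the 2 CBA arrays, for Btk KO, Xid and CBA, with circles for run 1 and triangles for run 2. Monocyte and macrophage markers lie at 1.35 and 1.79 in Btk KO and at 0.73 and 1.33 in Xid, and B lineage markers at -0.44 and -0.55 in Btk KO.

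Lists for further blood cells held few measured genes. Of 9 eosinophil, basophil and mast cell markers 7 were below the filter level on all arrays, with Epx, of eosinophil peroxidase, at most 1.2, and Ccr3 passed with the block in Btk KO at 1.48 (limma adjusted p = 0.040, and 0.30 without the block). Of 6 progenitor markers 3 were tested, and of 8 T lineage markers 4 were. In Btk KO against CBA 0 of either list passed in limma, with 0 at an unadjusted p under 0.05 without the block and 1 in each list with it. The single tested platelet marker did not pass. No marker of any list was listed at 0 on any array. The part that any of these cell types had in the values of the 9 genes was not tested.

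Genes whose pattern over the 6 arrays was most like the mean log2 profile of the 7 tested granule probe sets were sought among 1893 probe sets with a range of at least 1 on the log2 scale. The mean log2 profile was 6.32 and 7.11 in Btk KO, 5.30 and 5.25 in Xid, and 4.85 and 5.10 in CBA. The 8 closest by Pearson correlation, over 6 arrays that fall into 3 groups, were Trgv1 (0.975), Eomes (0.968), Ifitm6 (0.956), Dmtn (0.956), Ccr3 (0.956), Anxa1 on 161703_f_at (0.947), Hp (0.944) and Fgl2 (0.944). The profile itself is highest on the Btk KO array of run 2, so that genes chosen for likeness to it peak there too. Ifitm6 read 47.3 and 87.2 in Btk KO, 37.0 and 37.9 in Xid, and 21.8 and 28.2 in CBA. Eomes, a T-box factor of NK and T cells, read 60.3 and 107.8 in Btk KO, 31.5 and 44.0 in Xid, and 24.1 and 27.4 in CBA. Since the 8 were chosen for a profile that is high in Btk KO, no test of that difference bears on them.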

How the data were processed

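RNA from splenic B cells was hybridised to 6 arrays, 2 for each group. The deposited table gives 1 intensity for each probe set on each array. The authors had scaled it, since all 6 arrays share a 2% trimmed mean of 100.06. The software and the way probes were summarised were not given in the sources used here. Array medians ran from 32.7 to 37.7, and precision is limited by how few arrays there are.

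Of 12488 probe sets, 66 are controls, and 10833 of the rest have 1 gene symbol, 396 several and 1193 none. Those below the 40th percentile of the mean log2 value (intensity 19.83) were left out as dim, 4969 of 12422. Differences of log2(intensity + 6) were tested two-sided in 1 model of 3 groups over 7453 probe sets (limma 3.58.1, lmFit and eBayes with trend, R 4.3.3), with 3 residual degrees of freedom, and checked on simulated data. The pseudocount understates differences of dim probe sets.

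The replicate numbers mark a run, from the design label and the chip lots in the file headers. Deviations from group means correlated within runs at 0.374 (Btk KO with CBA), 0.441 (Btk KO with Xid) and 0.31 (Xid with CBA), so the run served as a block in the paired fit, which leaves 2 residual degrees of freedom. Alternatives were this block, 2 other scalings, pseudocounts and filters, no trend, only the groups compared, and each array left out. The fits with the block and without the first Btk KO array, or without the filter, were added after seeing the data.

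All 9 genes are reported. From each pathway list, genes that passed are named, or up to 3 with the smallest p between Btk KO and CBA. Marker lists of other cell types are given by sums and counts. Chil3, Pglyrp1, Itgb2l, Wfdc21, Ccr2, Ccr3, Cd5l, Csf3r, Cxcr2, Ly6g, Ctsg, Epx, Lyz2, Spi1, Mmp8, Mmp9 and Arg2 were named after their values were seen. The genes and lists were chosen with earlier results of these data known. Promoters are from RefSeq (GRCm38.p6). Figures were drawn with matplotlib 3.10.9.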

Additional observations from a re-analysis of the deposited data

How the results depend on the processing

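With 2 arrays a group, counts of calls moved with most settings. The log2 differences of S100a8, S100a9 and Camp between Btk KO and either other group stayed positive in all settings run. Those of Ngp did too, but Ngp passed the filter through its Btk KO arrays alone, so its sign says nothing about stability. Over 345 recomputed values of 21 member differences, 298 kept their side of the threshold, 20 gained a call, 16 lost one and 11 changed sign, and the causes were not tested. Dim probe sets limit what can be said of Ltf, Mpo, Prtn3 and Lcn2 160564_at, and the size of the Ngp difference from CBA depends on the pseudocount, at 3.24 with a pseudocount of 2 and 2.15 with 20. Median centring moved the median of all probe sets between Btk KO and CBA by -0.113, and the member differences there kept their sign.

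Between Btk KO and CBA limma called 13 of 7453 probe sets and 2 granule genes. The counts were 166 and 4 with the replicate block, 8 and 1 each with quantile normalization, median centring or no filter, 0 and 0 each without the intensity trend or with only the 2 groups, and 91 and 4 with the block but no first Btk KO array. With the block and no filter 73 probe sets and 3 granule genes were called, Ngp no longer among them, and with the stricter filter 29. With each array left out they ranged from 0 to 145 and from 0 to 3. Between Xid and CBA 5 probe sets and 0 granule genes were called, and the count of granule genes was 0 in every setting. The probe sets were 36 with the block, 3 and 8 with pseudocounts of 2 and 20, 9 with only the 2 groups, 11 with the block and no filter, 76 with the block but no first Btk KO array, and 0 to 9 with each array left out. Between Btk KO and Xid 3 probe sets and 0 granule genes were called. These were 14 and 2 with the block, 5 and 1 with a pseudocount of 20, 7 and 1 with the block and no filter, 12 and 3 with the block but no first Btk KO array, and 0 to 29 and 0 to 2 with each array left out. With only the 2 groups 0 probe sets were called.

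Signs changed for small differences. Camp between Xid and CBA was -0.021 with median centring, and Lcn2 161684_r_at between Btk KO and Xid was -0.019 with the block but no first Btk KO array. With each array left out, Elane ranged from -0.675 to 1.212 between Btk KO and CBA and from -1.604 to 0.283 between Btk KO and Xid. Mpo 100415_at ranged from -0.055 to 0.418 between Btk KO and Xid. Between Xid and CBA, S100a8 ranged from -0.178 to 0.173, Camp from -0.200 to 0.314 and Ngp from -0.304 to 0.213.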
